A study of Rattus norvegicus with 6 samples.

Results

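Vegfa, Pgf, Flt1, Kdr, Apln, Aplnr, Angpt2, Tek, Esm1 and Lrg1 are 10 genes of the signalling systems that start and shape new blood vessels. They were taken by name and not by a rule on their values, but with earlier results of these data known. All 10 were found in each of the 6 libraries. The time-course tables shared 28614 gene names, and the tables of the injected cords held 25054. The study profiled single cells of the spinal cord in an intact cord, in cords 1, 3 and 7 days after a crush at thoracic level 10, and in crushed cords injected with MPSS, as the labels call the drug, or with PBS, its carrier. The intact, day 1, day 3 and day 7 libraries form the time course. For the injected cords, MPSS at 10 mg/ml or PBS alone went into the tissue 3 days after the crush, at 5 sites with 1 µL per site, and the cords were taken 2 weeks after injury. All groups are given as SD genotype, Rattus norvegicus, at 6 to 8 weeks of age, with 5 animals per condition and a 5-mm piece of cord around the lesion. The tissue was digested whole, so no gate selected vessel cells. A crush is listed among the labels of the intact library too, and its title was followed. Both injected libraries carry the word re-analyzed in their titles. The time-course tables carry mouse-style gene names (5372 Gm names and 1724 Rik names in the intact table, against 4 and 9 in the injected tables), while the labels give rat for every library.

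VEGF-A, encoded by Vegfa, and placental growth factor, encoded by Pgf, bind the endothelial receptor FLT1, and VEGF-A drives vessel sprouting through KDR. Angiopoietin-2, the product of Angpt2, modulates the endothelial receptor TEK (TIE2) and loosens vessel walls, and apelin, the product of Apln, acts through its receptor APLNR and is a known marker of endothelial tip cells, the leading cells of a sprout. Esm1 encodes endocan, a secreted proteoglycan known from tip cells, and Lrg1 encodes a secreted glycoprotein that modifies endothelial TGF-beta signalling and is also made by neutrophils.

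Each group holds 1 library, so no difference has a replicate check and no test was made. The 4 time-course libraries held 2757 to 9263 cells and 9661044 to 72513866 UMIs (counted molecules), with medians of 3090 to 6648 UMIs per cell. The PBS library kept 1377 cells and the MPSS library 2091, with medians of 10292 and 10417 UMIs. The time-course and injected libraries were clustered apart and their levels are not compared with each other. Between 20 and 91 cell barcodes were shared by pairs of time-course libraries, and 5 by the PBS and MPSS libraries. A level is the UMI sum of a gene in a class of 1 library per 1000000 UMIs of that class (CPM). Bracketed ranges are 95% intervals for counting error alone. Levels of different genes are not compared, since the values carry no gene length.

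Cells were named by cluster from marker genes, and "-like" marks such a name. The time course held 1136 endothelial-like cells in the intact library, 1161 at day 1, 1354 at day 3 and 1254 at day 7. Cldn5, a tight junction gene of brain and cord endothelium, stood at 7125, 4541, 6153 and 6134 CPM in them, against 56.4 to 241 CPM in all other cells of the same libraries. It was among the markers that named these clusters, so the contrast is no independent check of the name. The endothelial-like cells of the 4 libraries fell mostly into different clusters, cluster 9 for intact (1078 cells), cluster 7 for day 1 (1148 cells) and cluster 1 for days 3 and 7 (1175 and 1228 cells). Lyz2, a phagocyte gene, was at 76.5, 84.5, 677 and 760 CPM in endothelial-like cells and at 2015, 2616, 14775 and 14408 CPM in the other cells. A further cluster with both endothelial and pericyte genes (cluster 25, 9 to 93 cells per library) was left unnamed. The injected libraries held 37 endothelial-like cells (PBS) and 33 (MPSS).

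Promoter sequences are shown for Apln, Pgf and Lrg1, members with much higher endothelial levels at day 1 that have an entry in the RefSeq promoter table for rat (GRCr8). Of the 10 genes, 7 matched the table, and Aplnr, Angpt2 and Tek did not. Each line gives the 250 bases before the annotated start site, 5′ to 3′ on the gene's strand, and capitals mark a match to a searched motif. The Apln stretch is chrX:132091247-132091496, that of Pgf chr6:110557748-110557997 and that of Lrg1 chr9:1036932-1037181, all on the minus strand. Motifs were searched on both strands, and a match is a description only.
Apln: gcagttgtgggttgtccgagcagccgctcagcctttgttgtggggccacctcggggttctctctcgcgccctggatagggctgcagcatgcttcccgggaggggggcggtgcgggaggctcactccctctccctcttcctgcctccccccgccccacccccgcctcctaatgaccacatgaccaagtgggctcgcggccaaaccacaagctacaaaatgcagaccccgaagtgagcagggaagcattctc
Pgf: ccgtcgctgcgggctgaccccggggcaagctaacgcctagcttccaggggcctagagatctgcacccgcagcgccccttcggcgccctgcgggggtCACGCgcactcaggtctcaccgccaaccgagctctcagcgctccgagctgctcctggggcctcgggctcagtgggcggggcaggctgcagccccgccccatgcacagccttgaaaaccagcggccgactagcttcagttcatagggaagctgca
Lrg1: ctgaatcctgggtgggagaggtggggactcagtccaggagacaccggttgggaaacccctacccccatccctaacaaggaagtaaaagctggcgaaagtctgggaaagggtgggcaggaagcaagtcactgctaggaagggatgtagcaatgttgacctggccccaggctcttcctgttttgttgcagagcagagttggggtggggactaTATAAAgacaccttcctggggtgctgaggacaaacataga
The motifs were ACGTG and GCGTG (cores of the hypoxia response element), TGANTCA (the AP-1 site), TTCNNNGAA (the STAT site) and TATAAA (the TATA box), and no 2 matches shown overlap. Over the 33469 stretches of this length in the table, 16.6%, 25.9%, 6.34%, 7.67% and 12.9% held them in that order. Pgf had 1 GCGTG match, on the other strand and printed as its reverse complement, whose first printed base lies 154 bases before the start site. Lrg1 had 1 TATAAA match beginning 40 bases before its start site, and the Apln stretch had no match to any of the 5 motifs. Because the time-course tables use mouse-style names, these rat stretches are given as the labelled species' sequence.

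The 4 receptors were measured chiefly in endothelial-like cells in every time-course library. Flt1, the VEGF-A and placental growth factor receptor, stood at 2694 CPM in the intact library, 1915 at day 1, 1539 at day 3 and 1913 at day 7, on 6920 to 12752 UMIs. All 3 injured libraries lay below the intact one, 1.41-fold (1.37 to 1.44) at day 1, and the lowest level was at day 3. Endothelial-like cells held 94.8%, 86.7%, 83% and 91% of the Flt1 UMIs while holding 41.2%, 13.2%, 10.5% and 11.9% of all UMIs. Classes with 50 or more cells outside the receiving ones (under 0.2 of the highest class) reached 80.2 to 94.1 CPM of Flt1 in the intact library and 12.8 to 44.6 CPM at day 1. After thinning each cell to 1000 UMIs, 91.4% of intact endothelial-like cells carried a Flt1 UMI, against 77.8%, 75.4% and 80.2% at days 1, 3 and 7, and 7.39%, 0.832%, 0.850% and 1.66% of microglia-like cells in the same order.

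Kdr, the main signalling receptor of VEGF-A, was at 279, 217, 268 and 273 CPM in the intact, day 1, day 3 and day 7 libraries. Only the day 1 level stood apart, 1.29-fold (1.19 to 1.39) below intact, and the small differences at days 3 and 7 turned from below to above intact with TMM scaling (log2 ratios of -0.06 and -0.03, against 0.17 and 0.14). Tek, the angiopoietin receptor, was at 257, 167, 194 and 221 CPM in the same order. It was lowest at day 1, 1.54-fold (1.42 to 1.68) under intact, and each later library lay nearer the intact level. None of these receptors differed by 2-fold or more from intact in any injured library.

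Aplnr, the apelin receptor, ran otherwise. Its endothelial level was 5.77 CPM (23 UMIs) in the intact library, 3.30 CPM (22 UMIs) at day 1, 24.9 CPM (190 UMIs) at day 3 and 13.3 CPM (48 UMIs) at day 7. The intact and day 1 levels did not differ beyond counting error (ratio 0.572, 0.304 to 1.07), while day 3 lay 4.32-fold (2.79 to 6.98) and day 7 2.30-fold (1.37 to 3.96) above intact. The mean over cells, which gives each cell the same weight, put these log2 ratios at 1.13 and 0.96, against 2.11 and 1.20 for the sums. Other classes were at 0 to 6.15 CPM at day 3. Few cells carried the transcript: 6.50% of day 3 endothelial-like cells had a UMI, 1.11% after thinning, against 0.106% and 0.0354% of microglia-like cells.

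Apln, Pgf, Angpt2 and Lrg1 were all highest in endothelial-like cells at day 1 and lower at each later time. Apln was at 2.51 CPM (1.20 to 4.62, 10 UMIs) in the intact library, 556 CPM (538 to 574, 3702 UMIs) at day 1, 75.6 CPM (69.5 to 82.0) at day 3 and 6.36 CPM (4.03 to 9.54, 23 UMIs) at day 7. The day 1 level was 222-fold (120 to 462) and the day 3 level 30.1-fold (16.3 to 63.1) that of the intact cells, and the day 7 level was 2.53-fold (1.16 to 5.96) higher. At day 7, 39.1% of the UMIs came from 1 cell, and the log2 ratio of 1.34 became 0.95 without that cell and 0.30 as a mean over cells. The day 3 log2 ratio of 4.91 became 3.72 as a mean over cells. Endothelial-like cells held 83.3% to 88.3% of all Apln UMIs in the 4 libraries, and at day 1 other classes below 0.2 of the highest reached 1.83 to 15.1 CPM. A UMI of Apln was found in 35.4% of day 1 endothelial-like cells and in 22.5% after thinning, against 0.352%, 2.66% and 0.239% after thinning in the intact, day 3 and day 7 libraries. In pericyte/smooth muscle-like cells Apln was at 51.9 CPM at day 3, with 95.2% of the UMIs from 1 cell. In thinned microglia-like cells the share was 0% to 0.499%, at median depths of 3261 to 10029 UMIs against 2448.5 to 4256 UMIs in endothelial-like cells.

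Pgf stood at 3.26 CPM (13 UMIs) in intact endothelial-like cells, 243 CPM (232 to 256) at day 1, 51.4 CPM (46.5 to 56.8) at day 3 and 0.829 CPM (3 UMIs) at day 7. These are folds of 74.6 (43.5 to 140) at day 1 and 15.8 (9.11 to 29.9) at day 3 over intact, and day 7 lay 62-fold (21.1 to 302) below day 3. The intact level rested on 1 cell with 69.2% of the UMIs, and without the highest cell of each sum the log2 ratios were 7.88 at day 1 and 5.48 at day 3, against 6.22 and 3.98 with it. The day 7 level was under the intact one (ratio 0.254, 0.0465 to 0.925), on 3 and 13 UMIs, and without those cells the log2 ratio was -0.86.

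Angpt2 was at 7.03 CPM (28 UMIs) in the intact library, 225 CPM (214 to 237) at day 1, 27.5 CPM (23.9 to 31.5) at day 3 and 7.74 CPM (28 UMIs) at day 7. The day 1 level was 32.1-fold (22.1 to 48.4) and the day 3 level 3.92-fold (2.63 to 6.04) that of intact, and the day 7 and intact intervals overlapped. Lrg1 was at 45.9 CPM, 1327 CPM, 225 CPM and 89.6 CPM in the same order. It was 28.9-fold (25 to 33.6) higher at day 1, 4.89-fold (4.20 to 5.73) at day 3 and 1.95-fold (1.62 to 2.35) at day 7 than in the intact library. After thinning, a Lrg1 UMI was in 2.11%, 48.1%, 9.45% and 4.94% of endothelial-like cells, and in 1.55% of day 1 microglia-like cells. In the 56 day 1 cells of the unnamed cluster 25, Apln was at 546 CPM, Pgf at 193, Angpt2 at 238 and Lrg1 at 645 CPM. With TMM scaling, which shifts the median endothelial gene by 0.12, 0.23 and 0.17 (log2) at days 1, 3 and 7, the day 7 log2 ratio of Lrg1 moved from 0.96 to 1.13 and so past 2-fold.

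**Figure D1:**
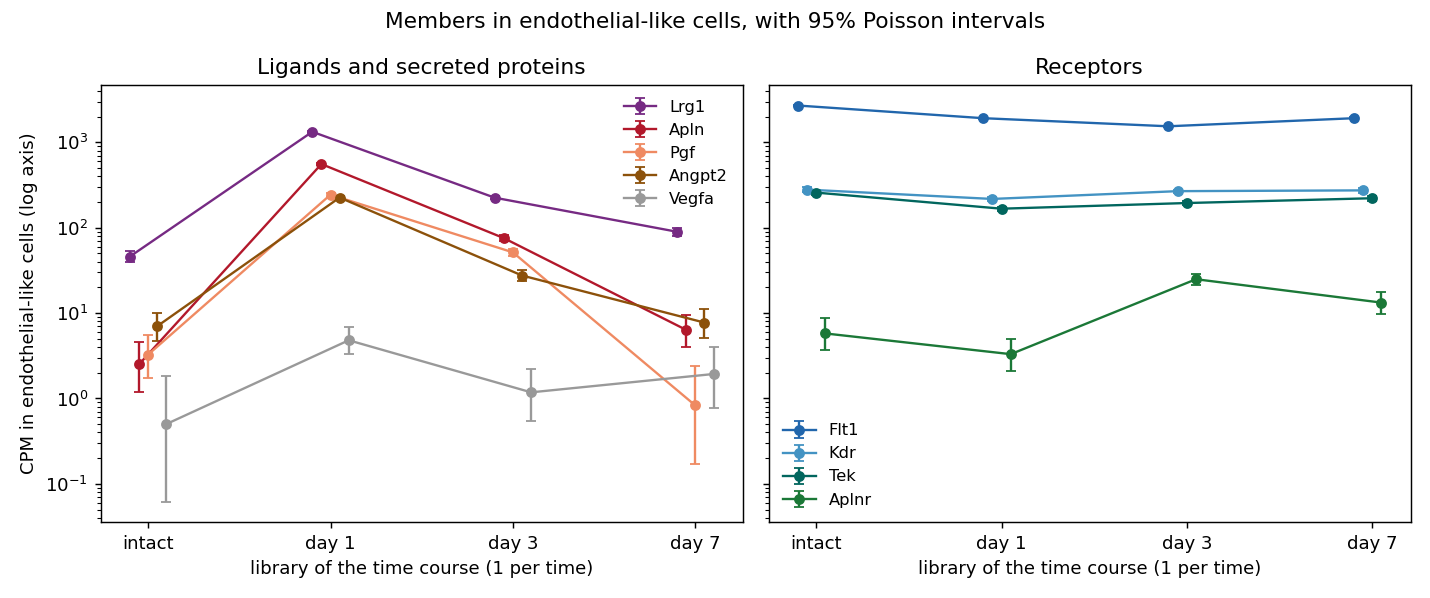
Level of each gene (CPM, log axis) in endothelial-like cells of the intact, day 1, day 3 and day 7 libraries (horizontal axis), ligands and secreted proteins on the left and receptors on the right, with bars for 95% Poisson intervals. Apln, Pgf, Angpt2 and Lrg1 peak at day 1, Aplnr peaks at day 3 at 24.9 CPM, and Flt1, Kdr and Tek stay within 2-fold of intact.

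Counted together, 5 of the 10 genes (Vegfa, Pgf, Apln, Angpt2 and Lrg1) were at least 2-fold higher at day 1 than in intact endothelial-like cells and 0 were lower, where 13.2% of the 12080 genes with 10 or more UMIs were higher and 13.8% were lower. At day 3, 6 were higher (the same 5 and Aplnr) and 0 lower, against 8.55% and 9.68% of all genes. At day 7, Apln and Aplnr were higher and Pgf was lower, against 5.23% and 7.7% of all genes. Esm1 had 1, 4, 0 and 0 UMIs in the 4 libraries and was not counted. Endothelial Vegfa rested on 2, 32, 9 and 7 UMIs, and its day 1 level of 4.81 CPM was the lowest of the classes under 0.2 of the top level, which spanned 4.81 to 13.8 CPM. With the 4 endothelial subclusters led by genes of another class left out, the day 1 log2 ratio of Vegfa was 2.63 in place of 3.26, and Vegfa was no longer in the day 3 count. Apln, Pgf, Angpt2 and Lrg1 stayed in both counts there, with day 1 log2 ratios of 7.77, 6.21, 5.00 and 4.94. Between day 1 and day 3, Apln was 7.36-fold, Angpt2 8.18-fold, Lrg1 5.91-fold, Pgf 4.73-fold and Vegfa 4.07-fold lower and Aplnr 7.54-fold (4.84 to 12.3) higher, where 8.8% of all genes were 2-fold higher and 11.1% lower. From day 3 to day 7, Pgf, Apln, Angpt2 and Lrg1 were lower again by 62-fold, 11.9-fold, 3.56-fold and 2.51-fold, against 5.74% of all genes 2-fold lower and 3.74% higher. Successive comparisons share a library, so they are not independent.

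Within the endothelial-like cells, the day 1 genes divided between cells of different kinds. The cells were clustered again without the 10 genes and their pathway lists, which gave 14 subclusters that mostly follow the libraries. At day 1, subcluster 4 (404 of the 1161 cells) was led by Plpp3, Emp1, Adamts4, Csf3 and Hbegf. It is called tip-like, because 7 of 12 tip-cell markers were at least 2-fold above the median of the 14 subclusters. That median spans all libraries, and whether a level shared by day 1 cells gives the name was not tested. Most of the 12 markers are also in the tip-cell list read below. Esm1 had 0 UMIs in these cells, and its 4 day 1 endothelial UMIs lay in subcluster 3. Subcluster 4 had none of the 12 markers among its 10 leading genes, from which the pathway lists were left out. It held 34.8% of the day 1 endothelial-like cells and 86.2% of their Apln UMIs, 90.1% of their Pgf UMIs and 75.9% of their Angpt2 UMIs. Apln was at 1238 CPM there, against 37.4 CPM in subcluster 3 (594 cells, led by Scgb3a1, Igfbp4 and Lcn2) and 59.5 CPM in the vein-like subcluster 7 (78 cells, led by Ackr1 and Selp, genes of venules). Pgf was at 566, 5.92 and 3.97 CPM and Angpt2 at 441, 62.9 and 45.0 CPM in the same order.

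Lrg1 lay elsewhere among the day 1 cells. It stood at 4179 CPM in the vein-like cells and 1563 CPM in subcluster 3, against 433 CPM in the tip-like cells, which held 12.6% of the UMIs. The vein-like cells were 6.72% of the endothelial-like cells and held 35.8% of the Lrg1 UMIs. They were deep, with a median of 7028.5 UMIs over all libraries against 3310 in subcluster 3 and 5136.5 in the tip-like cells. A share of cells set beside a share of UMIs thus overstates their contrast in level. Tek was at 249 CPM in subcluster 3, 114 CPM in the tip-like and 127 CPM in the vein-like cells, and Kdr was nearly level at 207, 239 and 213 CPM. Aplnr had 0 UMIs in the tip-like cells, and subcluster 3 held 68.2% and the vein-like cells 27.3% of its 22 UMIs. The vein-like cells had Aplnr at 7.94 CPM (6 UMIs) at day 1 and at 110 CPM (81.6 to 144, 51 UMIs) in the 72 vein-like cells of the other 3 libraries together, each of which held fewer than 50. Those 72 were 4 intact, 46 day 3 and 22 day 7 cells. The artery-like subcluster 5 (270 cells, led by Gkn3 and Bmx among others) had 0 UMIs over all libraries.

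At day 3, Apln and Pgf were concentrated in subcluster 8, which was led by Top2a, Ube2c and other genes of dividing cells and held 112 of the 1354 cells. These 8.27% of the cells held 61.1% of the Apln, 80.6% of the Pgf, 44.8% of the Angpt2, 34.7% of the Aplnr and 24.5% of the Lrg1 UMIs. Apln was at 269 CPM there, against 22.0 CPM in the capillary-like subcluster 2, 6.86 CPM in subcluster 0 (with Dbp among its leading genes) and 6.41 CPM in the artery-like cells. Flt1 ran the other way, at 536 CPM in subcluster 8 and 1796 to 2696 CPM in the other 3, and so did Tek, at 107 CPM against 189 to 280 CPM. The cells of subcluster 8 were deep, with a median of 9916 UMIs over all libraries against 1880 to 5619 in the other 3. They thus held a larger share of the endothelial UMIs than of the cells, so the shares above overstate the contrast in level.

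**Figure D2:**
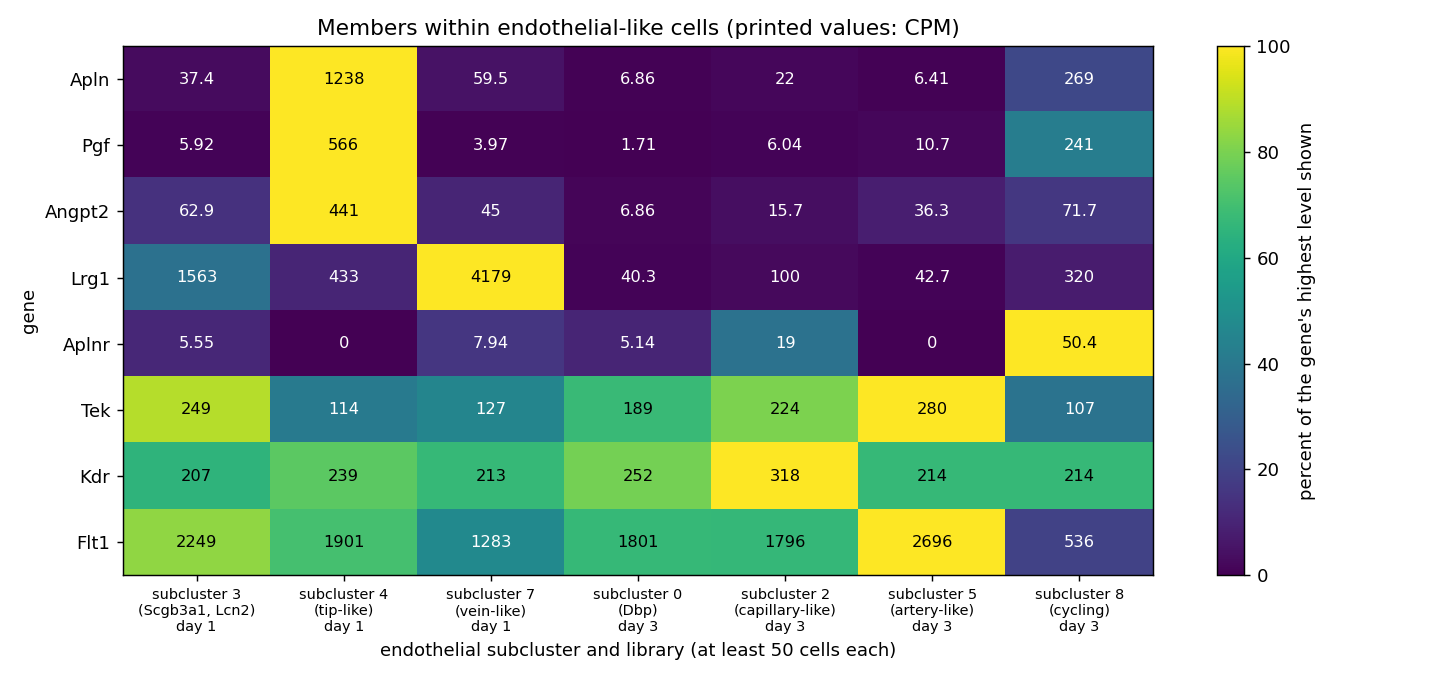
Level of 8 genes (rows) in the endothelial subclusters with at least 50 cells at day 1 and day 3 (columns), with the CPM printed in each field and the colour giving the percent of the gene's highest level shown. Apln, Pgf and Angpt2 are highest in the tip-like cells of day 1 (1238, 566 and 441 CPM), Lrg1 in the vein-like cells (4179 CPM) and Aplnr in the cycling cells of day 3 (50.4 CPM); vein-like cells of day 3, fewer than 50, are not shown.

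Most Vegfa UMIs after injury lay outside the endothelial-like cells. In macrophage/monocyte-like cells it was at 16.8 CPM (5 UMIs over 71 cells) in the intact library, 99.9 CPM (94.6 to 105) at day 1, 30.7 CPM at day 3 and 32.9 CPM at day 7. The day 1 level was 5.94-fold (2.54 to 18.3) that of intact and 3.25-fold that of day 3. These cells held 76.6%, 87.8% and 75.3% of the Vegfa UMIs at days 1, 3 and 7, with 26.4%, 46.6% and 23.7% of all UMIs. Thinned to 1000 UMIs, 9.69%, 3.78% and 3.01% of them carried a Vegfa UMI, against 0.555% of day 1 microglia-like cells, whose median depth was 10029 UMIs against 4696. Microglia-like cells were at 0.713, 6.69, 2.10 and 3.00 CPM from intact to day 7.

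The macrophage clusters differed among themselves in Vegfa. At day 1, cluster 2, led by Arg1 and Chil3 among others, was at 123 CPM (116 to 131) and cluster 11, led by the antigen presentation genes H2-Aa and Cd74, at 66.7 CPM. At day 3 cluster 2 was at 56.8 CPM, cluster 3 (with Gpnmb, a gene of lipid-laden phagocytes) at 38.5 CPM, and clusters 5, 23 and 11 at 27.2, 23.0 and 21.5 CPM. At day 1 Vegfa was also present in oligodendrocyte precursor-like (39.4 CPM), fibroblast-like (35.4 CPM) and neutrophil-like cells (30.8 CPM). At day 3 neutrophil-like cells were still at 29.4 CPM, and fibroblast-like cells were at 19.2 CPM.

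**Figure D3:**
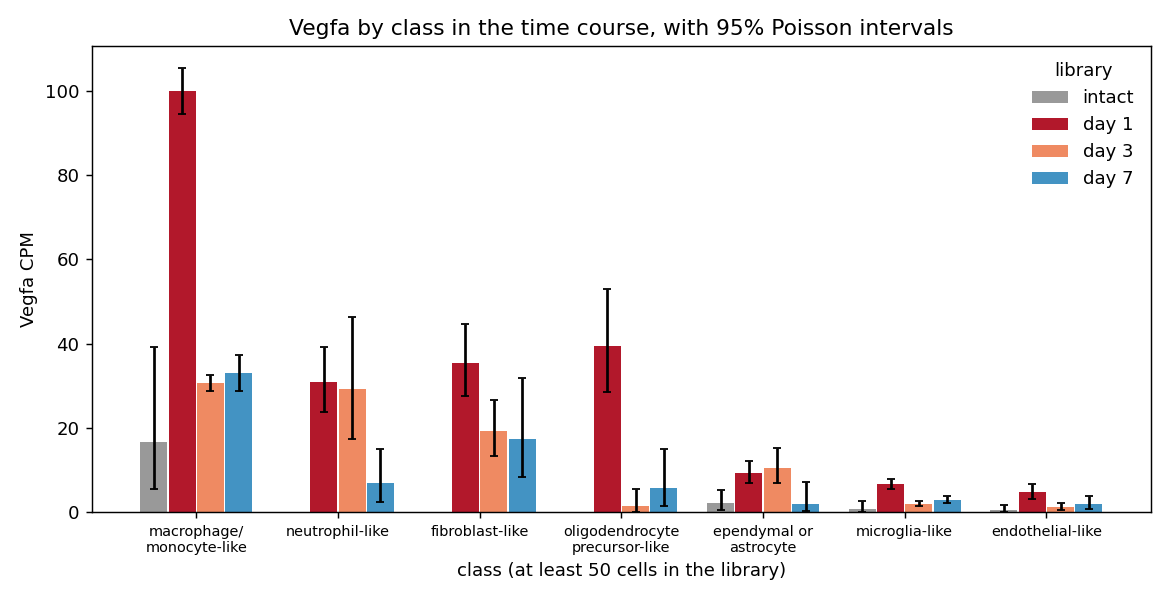
Vegfa level (CPM) by class, for classes with at least 50 cells, in the intact, day 1, day 3 and day 7 libraries, with 95% Poisson intervals. Macrophage/monocyte-like cells at day 1 stand at 99.9 CPM, above every other bar, and endothelial-like cells are at 4.81 CPM or less.

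Fibroblast-like cells were the class with Esm1. At day 1 they held 92.3% of its UMIs, at 219 CPM (199 to 241, 433 UMIs over 223 cells), and at days 3 and 7 they were at 55.4 CPM (101 UMIs) and 38.2 CPM (22 UMIs). The intact library had 40 fibroblast-like cells and 2 UMIs of Esm1 in them. Every other class with 50 or more cells was at 2.94 CPM or less in all 4 libraries. After thinning, 15.2%, 3.45% and 5.51% of fibroblast-like cells had an Esm1 UMI at days 1, 3 and 7, and 0.0555% of day 1 microglia-like cells did.

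The classes that held the Pgf UMIs differed between the libraries. Endothelial-like cells held 26%, 74.3%, 48.2% and 3.03% of them in the intact, day 1, day 3 and day 7 libraries. In the intact library 20 of the 50 UMIs were in ependymal-like cells, at 10.6 CPM. Fibroblast-like cells were at 32.4 CPM at day 1, 123 CPM (107 to 140) at day 3 and 67.7 CPM (39 UMIs) at day 7. Pericyte/smooth muscle-like cells were at 98.8 CPM (40 UMIs) at day 3 and 135 CPM (33 UMIs) at day 7, where 39.4% of the UMIs came from 1 cell. Angpt2 at day 3 was spread otherwise, with 52.1% of its UMIs in macrophage/monocyte-like cells at 9.02 CPM and 35.9% in endothelial-like cells at 27.5 CPM. Most of that came from cluster 5, with 244 UMIs at 13.6 CPM.

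Lrg1 had a further source in neutrophil-like cells, which carried 824, 297 and 304 CPM at days 1, 3 and 7, and 793 CPM in the 47 such cells of the intact library. Endothelial-like cells held 45.6%, 68.4%, 67.9% and 49.8% of the Lrg1 UMIs from intact to day 7. In the intact endothelial-like cells 22.4% of the Lrg1 UMIs came from 1 cell. At day 1, cluster 19, led by the granule genes Elane and Mpo, had Lrg1 at 374 CPM and cluster 2 at 85.2 CPM.

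**Figure D4:**
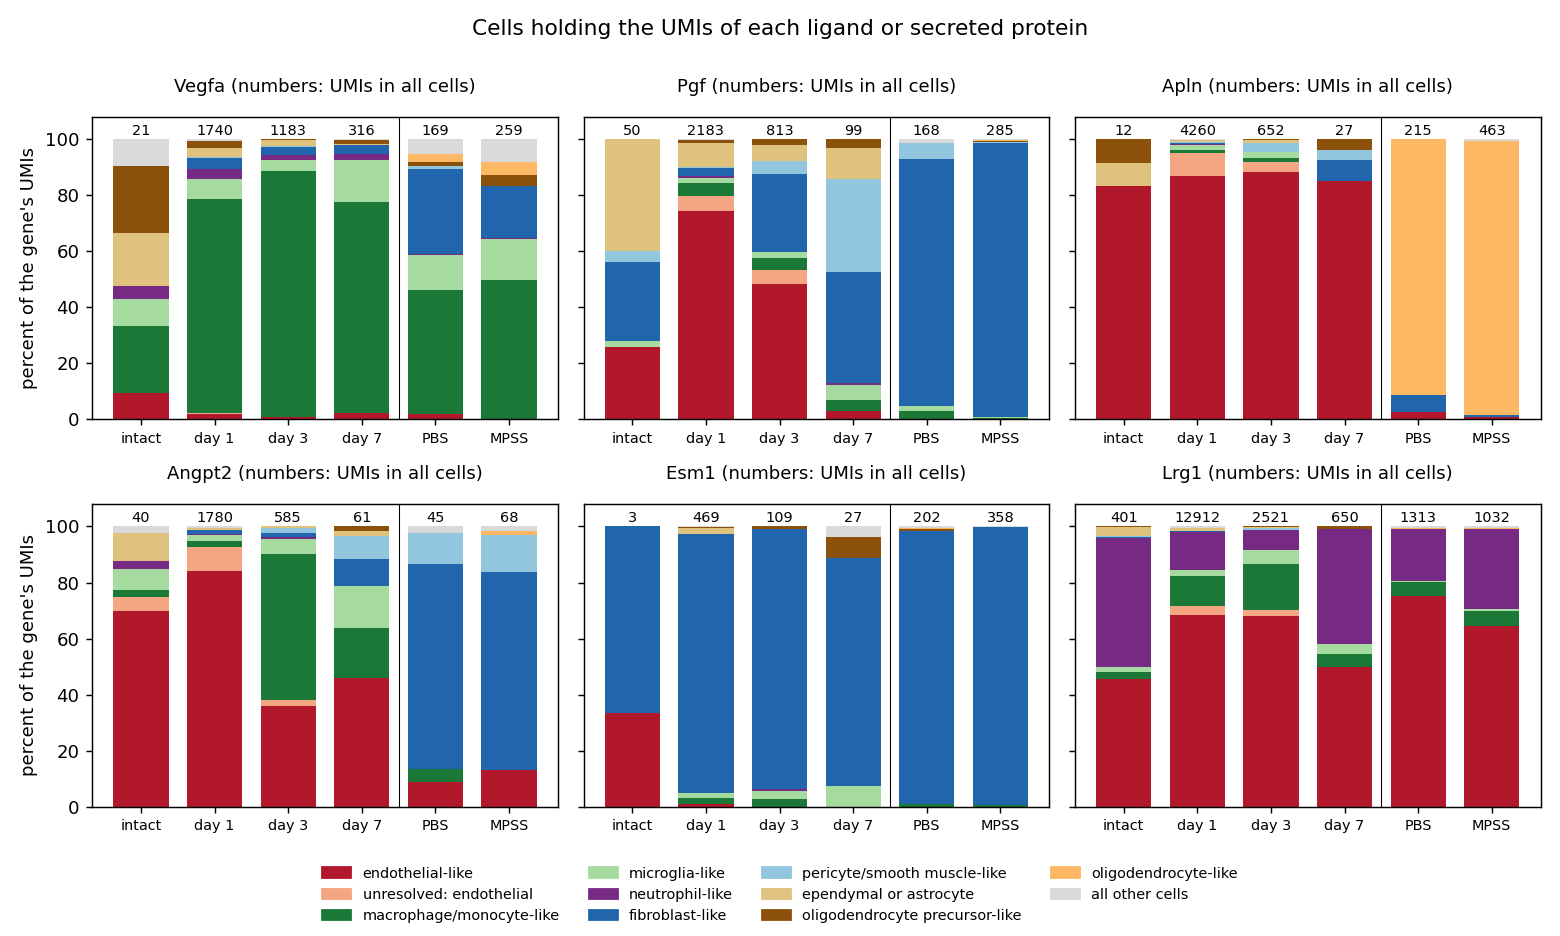
Percent of each gene's UMIs (vertical axis) held by each class (colours) in every library (horizontal axis), with the number of UMIs above each bar and a line between the time course and the injected cords. Vegfa lies mostly in macrophage/monocyte-like cells from day 1 (76.6% there), Apln in endothelial-like cells throughout the time course, and Esm1 in fibroblast-like cells.

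Genes of the same pathways outside the 10 were read from 5 lists in endothelial-like cells, beside the median log2 ratio of all genes (-0.06, -0.20 and -0.19 at days 1, 3 and 7 against intact). Of all genes tested, 13.2%, 8.55% and 5.23% were 2-fold higher at those days and 13.8%, 9.68% and 7.7% lower. Of the VEGF, angiopoietin and apelin list, 16 genes had 10 or more UMIs at day 1, of which 7 lay 2-fold or more above intact and 3 below it (median 0.86). Angptl4, a secreted inhibitor of lipoprotein lipase, went from 42.4 to 180 CPM, Rasip1, a gene needed for vessel lumens, from 144 to 538 CPM and Src from 5.77 to 18.0 CPM. At day 3, 2 of 16 were higher and 0 lower, and at day 7, 1 of 15 and 0, and these counts of 1 and 2 are near the shares of all genes, as is the count of 3 lower at day 1. Angptl4 was still 2.88-fold higher at day 3, while the coreceptor Nrp1 was 1.83-fold lower.

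Of the tip-cell and VEGF-induced list, 10 of 20 genes lay 2-fold or more above intact at day 1 and 1 below it (median 1.16). Igfbp3 went from 9.54 to 285 CPM, Mcam, an adhesion molecule of vessels, from 3.76 to 112 CPM and Trp53i11 from 3.26 to 57.5 CPM. Kcne3, a potassium channel subunit, had 0 UMIs in the intact sum and 13.7 CPM (91 UMIs) at day 1. It was at least 14-fold higher by the lower limit of the exact interval, and 18.2-fold with the 0 set to 3 UMIs. At day 3, 6 of 19 were higher and 0 lower (median 0.11), with Trp53i11 12.7-fold, Igfbp3 8.38-fold, Mcam 7.07-fold and Cxcr4, a chemokine receptor, 3.66-fold over intact. At day 7, 4 of 19 were higher and 0 lower (median -0.02), among them Trp53i11 at 3.22-fold, Igfbp3 at 2.75-fold and the transcription factor Sox17 at 2.13-fold.

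The other 3 lists showed fewer or mixed differences. Of the LRG1 and TGF-beta list 3 of 14 genes were higher at day 1 and 0 lower (median 0.04), among them the inhibitory Smad6 at 3.75-fold and Smad1, a signal transducer, at 2.05-fold. At day 3 and at day 7, 1 of 14 was higher and 0 lower, near the shares of all genes, and the gene past 2-fold at day 7 was Smad6 (2.02-fold). Of the hypoxia list 2 of 18 genes were higher and 4 lower at day 1 (median -0.31), against 13.2% and 13.8% of all genes, and the count of 2 is near that share. Hilpda went from 40.2 to 132 CPM, while Ndrg1 went from 652 to 182 CPM and Ddit4 and Bnip3 were 2.85-fold and 2.27-fold lower. Pgk1, a glycolytic gene, was 4.24-fold lower at day 3 and 3.88-fold at day 7, the 1 gene of 17 past 2-fold at each. Of 12 NOTCH genes 3 were higher and 3 lower at day 1 (median 0.35). Nrarp, a feedback regulator of NOTCH, went from 5.52 to 72.7 CPM and was still 9.43-fold and 7.96-fold over intact at days 3 and 7. Lfng, Hey1 and Hes1 were 4.20-fold, 4.15-fold and 2.86-fold lower at day 1. Hes1 was 2.38-fold higher at day 7, where 2 of 12 were higher and 0 lower, against 1 higher and 2 lower at day 3.

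The genes whose level was most like each of the 10 were found over 31 sums of a class in a library of the time course, among 6912 genes, by Pearson's r of log2(CPM + 10). The sums of 1 library share its depth, and r is a description. Apln and Angpt2 were each other's nearest gene (r = 0.929), and the nearest to Pgf were Synpo (0.903) and Adamts4 (0.859). Flt1, Kdr and Tek were each nearest to endothelial genes, among them Adgrf5 (0.990, 0.987 and 0.980). The nearest to Vegfa was Cd44 (0.860), to Aplnr Slc22a8 (0.857), to Esm1 Dio2 (0.989) and Prg4 (0.981), and to Lrg1 Pglyrp1 (0.854). Pglyrp1 is a granule gene of neutrophils, but here it was among the 10 leading genes of endothelial-like clusters 1 and 7. It was not among those of the neutrophil-like clusters 18, 20 and 28.

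In the injected cords, 2 weeks after injury, most Apln, Pgf and Esm1 UMIs lay outside the endothelial-like cells. Apln was found mainly in oligodendrocyte-like cells, which held 91.2% of its UMIs in the PBS library and 97.6% in the MPSS library. Its level in them was 64.7 CPM (55.9 to 74.4, 196 UMIs over 261 cells) with PBS and 80.2 CPM (73.0 to 88.0, 452 UMIs over 452 cells) with MPSS, a ratio of 1.24 (1.05 to 1.47). In those cells 29.9% and 37.8% had an Apln UMI and 3.51% and 6.47% after thinning, while microglia-like cells had 0 UMIs of Apln in both libraries. Median depths were 10858 and 11858 UMIs in oligodendrocyte-like and 11449.5 and 12415 UMIs in microglia-like cells. The level differed between oligodendrocyte clusters, at 136 CPM (PBS) and 179 CPM (MPSS) in cluster 10 and 47.1 and 58.5 CPM in cluster 8. No cluster of the time course was named oligodendrocyte, so this source could not be read there.

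Fibroblast-like cells (128 with PBS and 166 with MPSS, 9.30% and 7.94% of the cells) held nearly all Esm1 and most Pgf UMIs. Esm1 was at 105 CPM (91.2 to 121) with PBS and 154 CPM (138 to 171) with MPSS, a ratio of 1.46 (1.22 to 1.75). Pgf was at 79.2 CPM (67.0 to 93.0) and 121 CPM (107 to 136), a ratio of 1.53 (1.25 to 1.88), and the log2 ratio was 1.01 as a mean over cells. Angpt2 in these cells did not differ beyond counting error, at 17.7 and 20.8 CPM (ratio 1.18, 0.742 to 1.90). With 1 library of each, these ratios do not show a difference between treatments beyond that between animals.

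Vegfa was spread over several classes of the injected cords. Macrophage/monocyte-like cells were at 13.7 CPM (75 UMIs) with PBS and 17.9 CPM (129 UMIs) with MPSS, and fibroblast-like cells at 27.3 CPM (51 UMIs) and 20.8 CPM (48 UMIs). Neither pair differed beyond counting error, with ratios of 1.31 (0.975 to 1.76) and 0.763 (0.504 to 1.15). In microglia-like and macrophage/monocyte-like cells together, 0 of the 10 genes were 2-fold higher with MPSS and 1 was lower (Pgf, on 2 against 8 UMIs), where 2.12% of 10621 genes were higher and 3.61% lower. Lrg1 in these phagocytes was at 8.19 CPM (72 UMIs) with PBS and 4.94 CPM (61 UMIs) with MPSS, 1.66-fold (1.16 to 2.37) lower, and the log2 ratio was -1.28 as a mean over cells. Macrophage/monocyte-like cells gave 69 and 55 of those UMIs, with 20.3% and 21.8% of them from 1 cell each.

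The injected endothelial-like cells were under the minimum of 50 per library, so levels are given without ratios. Flt1 was at 861 CPM (777 to 951) with PBS and 1139 CPM (1031 to 1255) with MPSS, Kdr at 91.0 and 64.4 CPM (41 and 23 UMIs) and Tek at 146 and 160 CPM (66 and 57 UMIs). Aplnr was at 178 CPM (141 to 221, 80 UMIs) and 81.2 CPM (54.4 to 117, 29 UMIs), and Lrg1 at 2186 and 1864 CPM. The Flt1 and the Aplnr intervals of the libraries did not overlap, in opposite directions, and 37.8% and 42.4% of the cells carried an Aplnr UMI, or 17.1% and 12.1% after thinning (6 of 35 and 4 of 33 cells). In thinned microglia-like cells that share was 0% in both libraries. Median depths were 7687 and 9769 UMIs in endothelial-like and 11449.5 and 12415 UMIs in microglia-like cells. Outside the endothelium, 11 Aplnr UMIs of the PBS library came from 1 Schwann-like cell. Lrg1 was at 3597 CPM in 25 neutrophil-like cells with PBS and at 4452 CPM in 32 with MPSS.

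**Figure D5:**
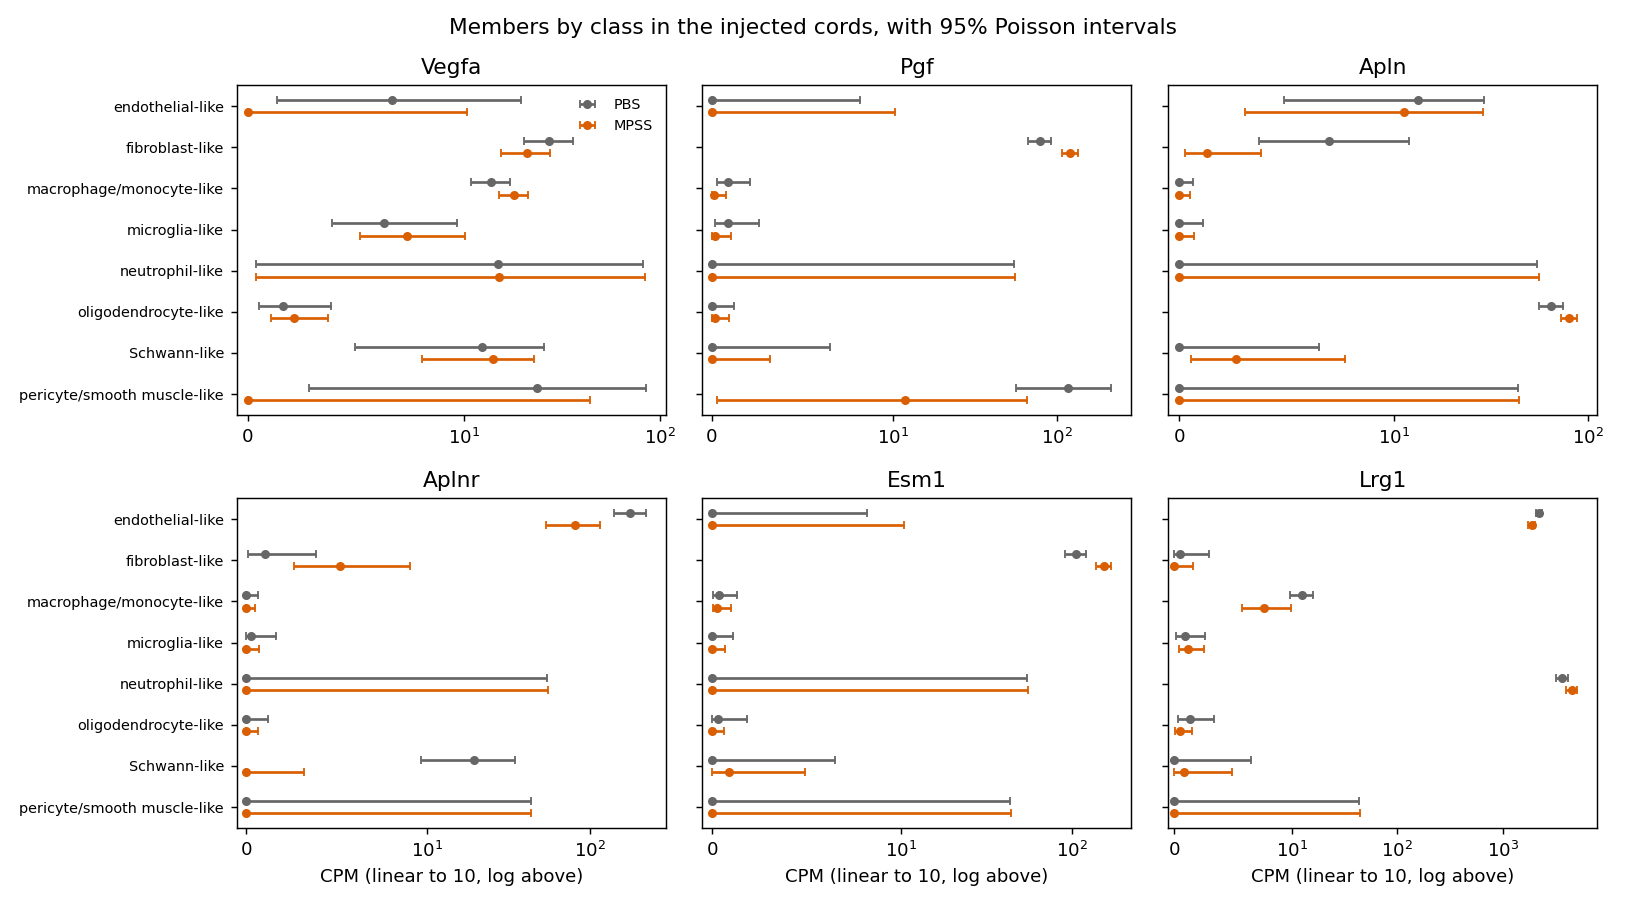
Level of 6 genes (CPM, axis linear up to 10 and logarithmic above) by class in the PBS (grey) and MPSS (orange) libraries, with 95% Poisson intervals. Apln stands out in oligodendrocyte-like cells (64.7 and 80.2 CPM), Esm1 and Pgf in fibroblast-like cells, Aplnr in endothelial-like cells and Lrg1 in endothelial-like and neutrophil-like cells.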

How the data were processed

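The deposited tables hold whole-number UMI counts for each gene in each cell. The authors used Cell Ranger, given as 3.0.2 by the submitters' processing notes and as 3.1.0 in the headers of the injected matrices. The genome build and the calling of cells from droplets are not given in the sources used here. Cells stayed in when they had 200 genes and 500 UMIs or more and no more than 20% mitochondrial UMIs. The time-course and injected sets were clustered separately (2000 variable genes without the 10 genes and their pathway lists, 30 components, 20 neighbours, Leiden resolution 1; scanpy 1.11.5, leidenalg 0.10.2, Python 3.11.15), and clusters were named from marker lists. Clusters led by markers of another class stayed unresolved, by rules set after seeing the data. Doublets, marked at 0.8% per 1000 cells, stayed in and were left out as an alternative.

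Counts were summed per class and library and scaled to CPM, with exact 95% Poisson intervals. Ratios have exact binomial intervals and needed 50 cells per class and library and 10 UMIs over both sums, and 2-fold or more was called. A count of 0 was set to 3 in ratios. A source or receiving class had at least 50 cells, 10 UMIs and 0.2 of the level of the highest class. Named pathway genes are up to 4 per list and contrast with the largest ratio, and the 4 genes most like each of the 10 were found by correlation and the first of them printed. Some genes that these rules name are left out of the text. The genes and lists were chosen with earlier results of these data known. Intervals cover counting error only, and the labels give 5 animals per condition with no map from cells to animals. Alternatives were other scalings (TMM by edgeR 4.0.16), minimum counts, cell filters, clusterings, the mean over cells and the highest cell left out. The ratio step was tested on simulated data.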

Additional observations from a re-analysis of the deposited data

How the results depend on the processing

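No paired analysis was possible because each group has 1 library and the groups share only replicate number 1. No log2 ratio changed direction in a called gene: of 317 alternative values for 23 called ratios, 304 stayed at 2-fold or more and 13 fell under it. Of 616 alternative values for all 44 log2 ratios, 577 lay inside the counting-error interval of the main ratio and 39 lay outside it. That interval is wide for genes on few UMIs, so a value inside it can still lie far from the main one. Of the called ratios, 0 reversed. The totals of 317 and 616 include the minimum-count settings, which only choose genes and cannot move a ratio. Of the counts, 144 of 154 alternative values stayed within 1.5 times. With at least 50 UMIs per gene, the VEGF list at day 3 had 1 gene higher in place of 2, the hypoxia list at day 1 had 1 higher in place of 2, and at day 7 1 of the 10 genes was higher in endothelial-like cells in place of 2 and 0 lower in place of 1. As a mean over cells, 0 were higher at day 7. Without the highest cell, and with each cell named alone, 0 were lower at day 7 in place of 1. In phagocytes of the MPSS against the PBS library, 1 gene was lower, against 0 with at least 50 UMIs, 3 as a mean over cells and 2 with each library clustered alone. Causes were not tested beyond what each setting removes. With each cell named alone, the log2 ratios of Pgf were 7.45 at day 1 and 5.53 at day 3. Of 102 alternative shares of cells, 89 moved with the thinning depth. The alternative without subclusters led by another class was chosen after seeing the data. Endothelial levels on few UMIs, such as Pgf (13 intact and 3 at day 7), Apln (10 and 23) and Aplnr (23 and 48), limit the precision of the folds against intact.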
